A study of Mus musculus with 2 samples.

Results

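The cells described here are macrophages of MC38 tumours that carried transcripts of Fcrls, Folr2, Cbr2 and Gpr34, genes of tissue-resident macrophages in the mouse. They were chosen from their own counts in 2 steps. A phagocyte gate kept barcodes with at least 2000 UMIs (unique molecular identifiers, the counted transcripts), at most 15% mitochondrial UMIs, and transcripts of at least 4 of the 9 genes Lyz2, Ctss, Cybb, Csf1r, Ms4a7, Mrc1, C1qa, Tyrobp and Fcer1g. Gated barcodes also held at most 2 UMIs of the tumour genes Hmga2, Sox9, Tafa1 and Hoxa9 together, and none of Cd3e or Cd3d. Gated cells with at least 3 UMIs of Fcrls, Folr2, Cbr2 and Gpr34 together were the members, 449 of 1407 gated cells and of 28346 barcodes in all. The members were 259 of 597 gated cells in one library, labelled SPP1, and 190 of 810 in the other, labelled vector. They were set against 611 gated cells with 0 UMIs of the 4 genes, 207 (SPP1) and 404 (vector), called zero cells from here on.

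MC38 is a mouse colon adenocarcinoma cell line. Pools of MC38 cells carrying either SPP1 or a control vector, delivered by lentivirus, were grown under the skin of C57BL/6 mice, and the labels give the genotype as WT in both groups. Every mouse was given anti-PD-1, a checkpoint antibody, at 10 mg/kg, 2 injections a week for 2 weeks from day 7 after the cells were injected, so the design holds no tumour without the antibody. Dissociated whole tumours were measured by droplet single-cell RNA sequencing, with 1 library per group, and the labels do not say how many tumours went into each. No difference between the libraries therefore has a replicate check or a p-value, and every interval in brackets is a 95% interval for counting error alone. SPP1 and vector in brackets name the library by its label.

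Resident macrophages settle in tissues from embryonic or early precursors and are renewed in place or from blood monocytes. They clear dying cells through receptors and bridging proteins that bind phosphatidylserine, and they release chemokines that draw monocytes. Macrophages with folate receptor beta, encoded by Folr2, are known as a perivascular population in several tumours. Osteopontin, encoded by Spp1, is a secreted glycoprotein that binds integrins and CD44 and is made by some tumour macrophages.

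The libraries were close in size. Barcodes numbered 14029 (SPP1) and 14317 (vector), with 164599332 UMIs (SPP1) and 164247003 UMIs (vector). The mouse gene Spp1 stood at 133 CPM (SPP1) and 154 CPM (vector) in the 21601 tumour-type barcodes, defined by at least 3 UMIs of the 4 tumour genes and fewer than 4 phagocyte genes. Its level in the tumour-type barcodes was thus not higher in the library labelled SPP1, and whether the construct is counted at the mouse gene is not given in the sources used here. Members held a median of 8278 UMIs (SPP1) and 9671 UMIs (vector), zero cells 6900 (SPP1) and 6983 (vector), and tumour-type barcodes 11817 (SPP1) and 12361 (vector). The libraries shared 93 barcode sequences, 1 of them in a member of the SPP1 library. A doublet caller marked 2 members (SPP1) and 0 members (vector), and these cells were kept.

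Fcrls, which encodes a scavenger-receptor-like member of the Fc receptor-like family, was the most widespread of the 4 genes that chose the members. Its transcripts were seen in 86.1% (SPP1) and 72.6% (vector) of members, at 458 CPM (SPP1) and 253 CPM (vector) (CPM, the summed UMIs of a gene scaled to a common total of all UMIs of the cells). Gpr34, a receptor for lysophosphatidylserine, followed in 71.0% (SPP1) and 67.9% (vector), at 242 CPM (SPP1) and 209 CPM (vector). Folr2 was seen in 59.8% (SPP1) and 52.6% (vector) of members and Cbr2, a carbonyl reductase, in 40.9% (SPP1) and 35.3% (vector). The genes overlapped only in part. All 4 were seen in 48 members (SPP1, 18.5%) and 22 members (vector, 11.6%), and a single one of them in 33 (SPP1) and 39 (vector). The sum of the 4 genes had a median of 7 UMIs (SPP1) and 5 UMIs (vector) per member and reached 39 (SPP1) and 30 (vector). These values chose the cells and are given as a description.

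Promoter sequences of the rule's genes are shown because the cells were picked by their joint transcripts. RefSeq windows on GRCm38.p6 from 250 bases before to 50 after the start were held for Fcrls, Folr2 and Cbr2, and Gpr34 had none in the table used. They are printed 5′ to 3′ in the direction of the gene, all on the minus strand. The Fcrls window is chr3:87263475-87263774, the Folr2 windows are chr7:101857141-101857440 and chr7:101845282-101845581, and the Cbr2 window is chr11:120731972-120732271. Capitals mark matches, on either strand, to GAGGAAG, a core bound by the macrophage factor PU.1, and to TGCTGA, a partial site of MAF factors. Neither motif overlapped the other.
Fcrls: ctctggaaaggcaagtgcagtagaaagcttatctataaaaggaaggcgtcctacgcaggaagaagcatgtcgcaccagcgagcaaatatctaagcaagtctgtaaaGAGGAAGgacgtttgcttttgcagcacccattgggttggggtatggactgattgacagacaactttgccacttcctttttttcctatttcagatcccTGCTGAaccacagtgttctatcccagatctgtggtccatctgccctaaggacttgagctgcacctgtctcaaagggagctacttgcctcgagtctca
Folr2 window 1: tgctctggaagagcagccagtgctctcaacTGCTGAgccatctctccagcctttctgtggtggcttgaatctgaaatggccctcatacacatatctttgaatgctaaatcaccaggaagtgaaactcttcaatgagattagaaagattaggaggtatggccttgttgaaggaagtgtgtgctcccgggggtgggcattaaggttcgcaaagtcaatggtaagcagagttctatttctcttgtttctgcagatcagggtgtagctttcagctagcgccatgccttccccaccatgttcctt
Folr2 window 2: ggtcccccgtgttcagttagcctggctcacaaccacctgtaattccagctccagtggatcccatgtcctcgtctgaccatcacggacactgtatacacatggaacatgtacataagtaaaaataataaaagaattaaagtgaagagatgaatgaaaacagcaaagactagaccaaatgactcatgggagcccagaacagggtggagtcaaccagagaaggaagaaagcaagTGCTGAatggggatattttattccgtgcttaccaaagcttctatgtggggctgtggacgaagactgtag
Cbr2: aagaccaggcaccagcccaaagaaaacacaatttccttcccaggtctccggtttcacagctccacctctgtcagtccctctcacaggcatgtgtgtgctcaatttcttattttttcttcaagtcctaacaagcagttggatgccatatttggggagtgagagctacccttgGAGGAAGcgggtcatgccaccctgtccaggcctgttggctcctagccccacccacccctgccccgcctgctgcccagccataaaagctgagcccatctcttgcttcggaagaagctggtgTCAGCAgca
The Fcrls and Cbr2 windows each held 1 match to GAGGAAG and 1 to TGCTGA, and each Folr2 window held 1 TGCTGA and 0 GAGGAAG. Of all 32851 windows, 13.6% held GAGGAAG and 19.5% held TGCTGA. Without the genes of the rule, 69 windows belonged to 46 genes at least 2-fold higher in members than in zero cells in both libraries, and of these 23.2% held GAGGAAG and 17.4% held TGCTGA. These shares are 16 and 12 windows, and a gene can have more than 1 window. The 32851 windows were not limited to genes measured in these cells, and no difference between the shares was tested. A match is a run of letters and not a measured binding site.

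The members made up a larger share of the gated cells in the library labelled SPP1. They were 43.4% of gated cells there (39.4% to 47.5%) and 23.5% in the library labelled vector (20.6% to 26.5%), a ratio of 1.85-fold or 0.89 on the log2 scale (0.66 to 1.11). Zero cells were 34.7% (SPP1) and 49.9% (vector), a log2 ratio of -0.52. Cells with 1 or 2 UMIs were 21.9% (SPP1) and 26.7% (vector). The gap between the libraries widened with the count of the 4 genes. Cells with 3 to 5 UMIs were 16.1% (SPP1) and 12.5% (vector), a log2 ratio of 0.37 whose interval (-0.01 to 0.74) reached 0. Cells with 6 to 10 UMIs were 16.2% (SPP1) and 7.28% (vector), a log2 ratio of 1.16. Those with more than 10 UMIs were 11.1% (SPP1) and 3.70% (vector), a log2 ratio of 1.58 (0.97 to 2.18).

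The ratio was smaller over all barcodes. The gate itself held 4.80% (SPP1) and 6.55% (vector) of the barcodes that passed the limits on UMIs and mitochondrial share. Of those barcodes, members were 2.08% (SPP1) and 1.54% (vector), a log2 ratio of 0.44 (0.17 to 0.71), and zero cells were 1.67% (SPP1) and 3.27% (vector), a log2 ratio of -0.97. The step that limits tumour transcripts kept 600 of 1067 barcodes (SPP1) and 814 of 1187 (vector).

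**Figure D1:**
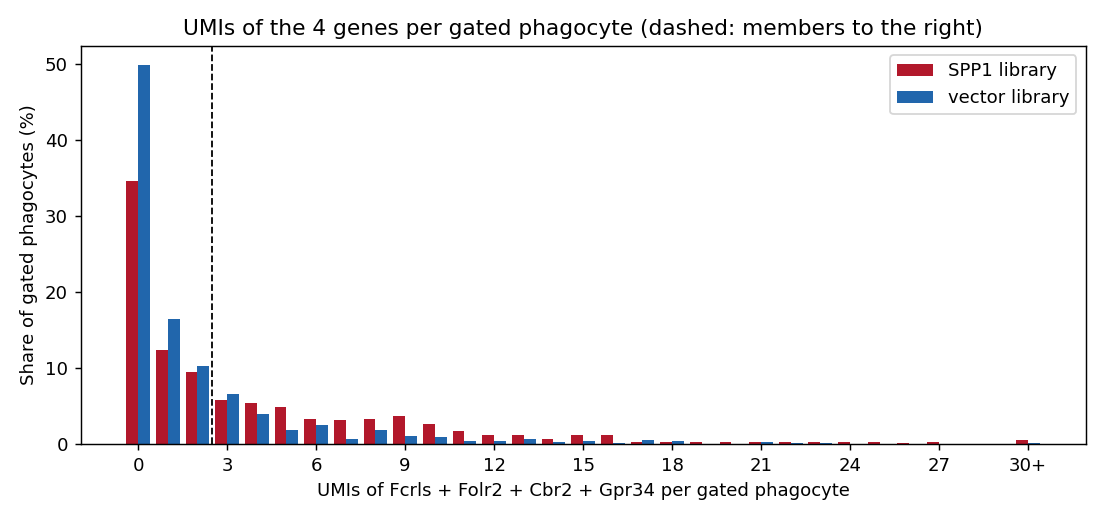
Share of gated cells (vertical axis, percent) by their summed UMIs of Fcrls, Folr2, Cbr2 and Gpr34 (horizontal axis, the last bar being 30 or more), with SPP1 bars left of vector bars and members right of the dashed line. The SPP1 library has the smaller bar at 0, 34.7% against 49.9% in the vector library, and the larger share above 10 UMIs, 11.1% against 3.70%.

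The marker list of these cells also held F13a1 and Gas6, which the rule did not use. That list was chosen with earlier results of these data known, so their levels describe the members and do not test the label. F13a1, the A subunit of coagulation factor XIII, had 1074 CPM (SPP1) and 751 CPM (vector) in members against 329 CPM (SPP1) and 158 CPM (vector) in zero cells. Gas6, which bridges phosphatidylserine on dying cells to the receptors Tyro3, Axl and Mertk, had 73.6 CPM (SPP1) and 66.6 CPM (vector) in members against 4.64 CPM (SPP1) and 6.55 CPM (vector) in zero cells. Other textbook genes of resident macrophages were nearly missing. Lyve1, a hyaluronan receptor, had 6.06 CPM (SPP1) and 10.7 CPM (vector) in members and no UMI in zero cells, and Cd163, a haemoglobin scavenger receptor, had 6.06 CPM (SPP1) and 8.05 CPM (vector) in members. Timd4, a phosphatidylserine receptor of long-lived resident cells, had 0 UMIs (SPP1) and 1 UMI (vector) in members. The cells are therefore called by their leading genes and not as Lyve1, Cd163 or Timd4 macrophages.

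Some genes best known from microglia, the resident macrophages of the brain, were also present. P2ry12, an ADP receptor, had 149.8 CPM (SPP1) and 110.1 CPM (vector) in members against 53.0 CPM (SPP1) and 39.6 CPM (vector) in zero cells, and Tmem119 had 59.7 CPM (SPP1) and 54.8 CPM (vector) in members against 31.8 CPM (SPP1) and 33.4 CPM (vector) in zero cells. Sall1, a transcription factor that marks microglia, was at 0 in members of both libraries. Of 9 T cell markers, 5 (SPP1) and 4 (vector) had any UMI in members, at a summed 8.23 CPM (SPP1) and 10.7 CPM (vector). Cd3e and Cd3d are among the 9 and were held at 0 by the gate. The 9 dendritic cell markers summed to 13.9 CPM (SPP1) and 9.66 CPM (vector) in members, against 96.7 CPM (SPP1) and 82.5 CPM (vector) in zero cells. The 8 neutrophil markers summed to 35.5 CPM (SPP1) and 24.7 CPM (vector) in members, against 68.2 CPM (SPP1) and 65.5 CPM (vector) in zero cells. The 8 fibroblast markers summed to 269.7 CPM (SPP1) and 234 CPM (vector) in members, against 389 CPM (SPP1) and 328 CPM (vector) in zero cells. The lists for NK cells, B cells, mast cells, endothelium and pericytes summed to at most 30.6 CPM in members, the value of the 7 B cell markers (vector). The 6 tumour markers summed to 458 CPM (SPP1) and 406 CPM (vector) in members and 559 CPM (SPP1) and 391 CPM (vector) in zero cells, against 10092 CPM (SPP1) and 9175 CPM (vector) in tumour-type barcodes. In members 6 (SPP1) and 5 (vector) of those 6 genes had a UMI, with Hoxa9 at 0 in the vector library. The gate allowed at most 2 UMIs of Hmga2, Sox9, Tafa1 and Hoxa9 together, and tumour-type barcodes needed at least 3. The rules thus set these 4 of the 6 genes apart in advance. The part of tumour RNA in the results that follow was not tested.

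For a wider comparison, UMIs were summed over the members and over the zero cells of each library. Of 3616 genes measured in both libraries, 140 differed at least 2-fold in the same direction in both (3.87%), 66 of them higher (1.83%) and 74 lower (2.05%) in members. The 4 genes of the rule are among the 66 by construction, and without them 62 of 3612 were higher (1.72%) and 136 differed in all (3.77%). The median log2 ratio over all measured genes was 0.01 (SPP1) and 0.00 (vector), and 51% (SPP1) and 49.7% (vector) of genes lay above 0. The rule itself separated these 2 sets of cells, so the values that follow describe what else went with the 4 genes. None was tested.

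A group of resident macrophage genes was higher in members. Of 40 genes listed for resident macrophages 24 were measured, and 12 of these were past 2-fold higher and 0 lower. Their median log2 ratio was 1.04 (SPP1) and 1.03 (vector). By the smaller of the ratios of the 2 libraries Gas6 came first, at 3.89 (SPP1) and 3.32 (vector) on the log2 scale. Maf, a transcription factor of macrophage maturation, had 676 CPM (SPP1) and 706 CPM (vector) in members against 143 CPM (SPP1) and 164 CPM (vector) in zero cells, log2 ratios of 2.24 (SPP1) and 2.1 (vector). Selenop, the plasma selenium carrier, had 1179.7 CPM (SPP1) and 1129 CPM (vector) in members against 274 CPM (SPP1) and 296 CPM (vector) in zero cells. In each of these genes both libraries showed the difference at a like size.

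Hpgds, the prostaglandin D synthase of blood cells, had 181 CPM (SPP1) and 132 CPM (vector) in members against 22.5 CPM (SPP1) and 30.8 CPM (vector) in zero cells. Stab1, a scavenger receptor that binds phosphatidylserine, had 274 CPM (SPP1) and 228 CPM (vector) in members against 84.1 CPM (SPP1) and 53.4 CPM (vector) in zero cells. Cx3cr1, the fractalkine receptor, had 649 CPM (SPP1) and 525 CPM (vector) in members against 241 CPM (SPP1) and 259.7 CPM (vector) in zero cells. Of 20 measured genes of apoptotic cell uptake, 4 were past 2-fold higher and 0 lower, namely Gas6, Mertk, Stab1 and C1qc. Mertk, the receptor kinase that Gas6 binds, had 239 CPM (SPP1) and 245 CPM (vector) in members against 96.7 CPM (SPP1) and 111 CPM (vector) in zero cells. C1qc, a chain of complement C1q, had 3115 CPM (SPP1) and 2862 CPM (vector) in members against 1432 CPM (SPP1) and 1378 CPM (vector) in zero cells.

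Of 17 genes measured for lipid handling 2 were past 2-fold higher, Apoe, the lipid carrier, and Cd63, a lysosomal tetraspanin, and 1 was lower. The list was split, with 9 (SPP1) and 11 (vector) genes above 0 and a median log2 ratio of 0.06 (SPP1) and 0.27 (vector). Apoe stood at 4376 CPM (SPP1) and 2984 CPM (vector) in members against 1419.8 CPM (SPP1) and 1259.8 CPM (vector) in zero cells. Of 20 measured lysosomal genes 2 were past 2-fold, the proteases Ctsb and Lgmn. Ctsb stood at 3853 CPM (SPP1) and 4185 CPM (vector) in members against 1892 CPM (SPP1) and 1701 CPM (vector) in zero cells. Col14a1, a fibril-associated collagen, had 181 CPM (SPP1) and 88.1 CPM (vector) in members against 43.0 CPM (SPP1) and 16.0 CPM (vector) in zero cells and 3.07 CPM (SPP1) and 3.17 CPM (vector) in tumour-type barcodes. Igf1, insulin-like growth factor 1, had 132 CPM (SPP1) and 156 CPM (vector) in members against 52.3 CPM (SPP1) and 48.8 CPM (vector) in zero cells. Named by the same rule of size were Ms4a14, Olfml3, Rnase4, Wwp1, Mir99ahg, Igfbp4 and Cd93, whose lowest log2 ratio was 1.70, that of Cd93 in the vector library.

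The chemokines split. Of 16 measured, 4 were past 2-fold higher in members, the monocyte attractants Ccl7, Ccl8 and Ccl12 and the platelet factor Pf4, and 2 were lower, Ccl5 and Ccl17. Ccl8 had 516 CPM (SPP1) and 828 CPM (vector) in members against 104 CPM (SPP1) and 55.7 CPM (vector) in zero cells, with log2 ratios of 2.31 (SPP1) and 3.89 (vector). Ccl7 had 1397 CPM (SPP1) and 1687 CPM (vector) in members against 611 CPM (SPP1) and 271 CPM (vector) in zero cells. Ccl12 had 620.4 CPM (SPP1) and 985 CPM (vector) in members against 217 CPM (SPP1) and 123 CPM (vector) in zero cells. For all 3 the ratio was smaller in the library labelled SPP1, where the zero cells held more of each transcript. Ccl5, a chemokine of T cells and macrophages, had 90.0 CPM (SPP1) and 27.9 CPM (vector) in members against 431 CPM (SPP1) and 214 CPM (vector) in zero cells. Ccl17, a ligand of CCR4, had 2.16 CPM (SPP1) and 24.2 CPM (vector) in members against 155 CPM (SPP1) and 183 CPM (vector) in zero cells. Its UMIs lay in only 0.772% (SPP1) and 1.58% (vector) of members and in 5.80% (SPP1) and 9.16% (vector) of zero cells.

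Several inflammatory and monocyte genes were lower in members. Of 16 measured inflammatory genes 7 were past 2-fold lower and 0 higher, with a median log2 ratio of -0.91 (SPP1) and -0.81 (vector). They were Il1b, Olr1, Thbs1, Ptgs2, Il6, Clec4e and Vegfa. Il1b, interleukin 1 beta, had 507 CPM (SPP1) and 613 CPM (vector) in members against 1689 CPM (SPP1) and 2219 CPM (vector) in zero cells. Olr1, a receptor for oxidised lipoprotein, had 11.3 CPM (SPP1) and 15.03 CPM (vector) in members against 114 CPM (SPP1) and 102 CPM (vector) in zero cells. Thbs1, the matrix protein thrombospondin, had 545 CPM (SPP1) and 442 CPM (vector) in members against 1782 CPM (SPP1) and 1302 CPM (vector) in zero cells. Each of the 3 was lower in members of both libraries.

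All 9 measured monocyte genes lay below 0 in both libraries, and 3 of them, Plac8, F10 and Clec4e, were past 2-fold lower. Plac8, a gene of recent monocytes, had only 3 UMIs (SPP1) and 5 UMIs (vector) in members, or 1.30 CPM (SPP1) and 2.68 CPM (vector), against 154 CPM (SPP1) and 117 CPM (vector) in zero cells. The intervals of its log2 ratio were -9.18 to -5.33 (SPP1) and -7.07 to -4.20 (vector). Among zero cells Plac8 was seen in only 12.6% (SPP1) and 12.1% (vector). F10, coagulation factor X, had 19.5 CPM (SPP1) and 36.0 CPM (vector) in members against 181 CPM (SPP1) and 152 CPM (vector) in zero cells. Ccr2, the receptor by which monocytes follow Ccl2, had 251 CPM (SPP1) and 434 CPM (vector) in members against 613 CPM (SPP1) and 749 CPM (vector) in zero cells and passed 2-fold in the SPP1 library alone. The growth factor Vegfa had 208 CPM (SPP1) and 239 CPM (vector) in members against 632 CPM (SPP1) and 580.3 CPM (vector) in zero cells. It was the 1 gene past 2-fold lower of 17 measured for hypoxia and glycolysis, of which 16 lay below 0 in each library. The remaining named lower genes were P2ry10, Dcstamp, Cdh1, Tnfrsf9, Plcb1, Gfod1, Il1r2, Ifitm1, Sgms2 and Cbfa2t3. Mmp12, macrophage elastase, had 248 CPM (SPP1) and 271 CPM (vector) in members against 1329 CPM (SPP1) and 893 CPM (vector) in zero cells.

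The genes of the phagocyte gate, which both sets of cells had to carry in part, were not alike either. Ms4a7, a membrane protein of mature macrophages, had 601 CPM (SPP1) and 526 CPM (vector) in members against 136 CPM (SPP1) and 131 CPM (vector) in zero cells. Mrc1, the mannose receptor, had 1399.7 CPM (SPP1) and 1442 CPM (vector) in members against 598 CPM (SPP1) and 676 CPM (vector) in zero cells. These 2 were past 2-fold in both libraries. C1qa, a chain of complement C1q, had 1912 CPM (SPP1) and 1515 CPM (vector) in members against 947 CPM (SPP1) and 775 CPM (vector) in zero cells, log2 ratios of 1.01 (SPP1) and 0.97 (vector). Lyz2, lysozyme, had 7293 CPM (SPP1) and 6533 CPM (vector) in members against 5810.4 CPM (SPP1) and 4667 CPM (vector) in zero cells. Csf1r, Ctss, Cybb, Tyrobp and Fcer1g had log2 ratios between -0.08 (Cybb, vector) and 0.71 (Csf1r, SPP1).

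Other lists held few genes past 2-fold. Of 9 measured genes of coagulation and fibrin, 2 were higher, F13a1 and Plau, and 2 lower, F10 and Thbs1. Of 10 genes of matrix remodelling, 1 was higher, Timp2, and 2 lower, Mmp12 and Mmp19, where Timp2, an inhibitor of matrix proteases, had 391 CPM (SPP1) and 408 CPM (vector) in members against 132 CPM (SPP1) and 134 CPM (vector) in zero cells. Of 8 growth factor genes, 1 was higher, Igf1, and 2 lower, Vegfa and Areg. Of 19 growth factor receptors and transcription factors of macrophages, 1 was higher, Maf, and 2 lower, Csf2rb and Bhlhe40. Of 10 genes of alternative activation and arginine use, 1 was higher, Mrc1, and 1 lower, Ccl17. Of 10 complement genes 1 was higher, C1qc, and of 9 checkpoint genes 1 was lower, Cd80. Lists with 0 past 2-fold were the interferon response (9 measured), iron handling (7), S phase (8), dissociation stress (15) and heat shock (11).

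**Figure D2:**
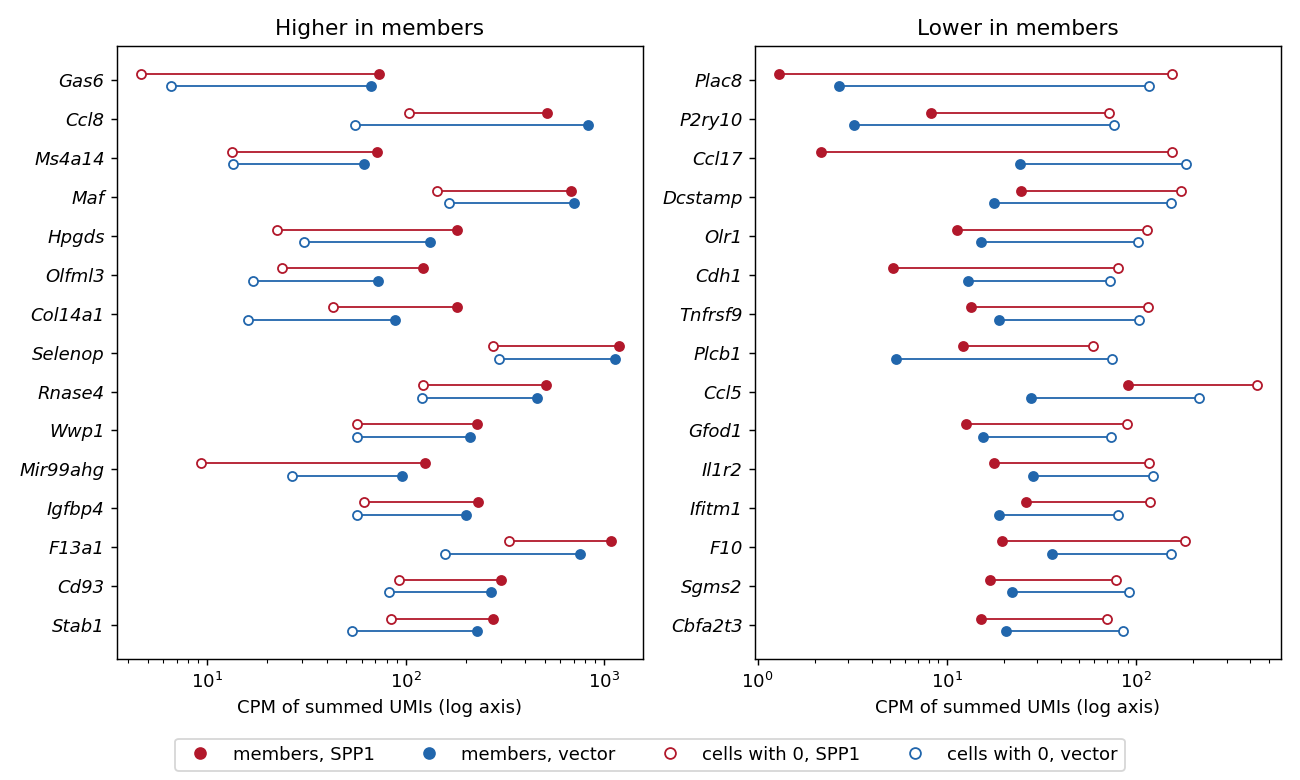
CPM on a log axis for the 15 named genes higher (left panel) and the 15 lower (right panel) in members. Filled points are members and open points zero cells of the SPP1 (red) and vector (blue) libraries, each point 1 sum over cells without replicates. Gas6 shows the widest gap of the left panel in the SPP1 library and Plac8 that of the right panel in both.

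Most genes of class II antigen presentation lay lower in members. Of 10 measured, 8 lay below 0 in each library, with a median log2 ratio of -1.18 (SPP1) and -0.65 (vector), and 1, the costimulatory ligand Cd80, was past 2-fold lower in both. Cd74, the invariant chain that guards the class II groove, had 2003 CPM (SPP1) and 3865 CPM (vector) in members against 5280.0 CPM (SPP1) and 6220.5 CPM (vector) in zero cells, log2 ratios of -1.40 (SPP1) and -0.69 (vector). H2-Aa, a class II alpha chain, had 1109 CPM (SPP1) and 2347 CPM (vector) in members against 2707 CPM (SPP1) and 4084 CPM (vector) in zero cells. Per cell, the summed class II genes had a median of 5563 CPM (SPP1) and 13713 CPM (vector) in members. In zero cells the median was 13813 CPM (SPP1) and 20405 CPM (vector), so members of the vector library stood near zero cells of the SPP1 library.

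Of the genes of cell division, 2 were past 2-fold higher in members. All 12 measured genes of the G2 and M phases lay above 0 in both libraries, with a median log2 ratio of 1.07 (SPP1) and 0.63 (vector), and the 2 past 2-fold were Cdk1 and Ccna2. Of 8 measured S phase genes 8 (SPP1) and 6 (vector) lay above 0, and 0 were past 2-fold. Cells with at least 10 UMIs of these genes were 30.9% (SPP1) and 25.3% (vector) of members, against 21.3% (SPP1) and 17.3% (vector) of zero cells. After each cell was thinned to 2000 UMIs, cells with at least 3 such UMIs were 35.5% (SPP1) and 25.3% (vector) of members, against 24.6% (SPP1) and 23.5% (vector) of zero cells. In the vector library the thinned shares lay within each other's intervals.

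Some of the differences were graded along the count of the 4 genes, and others were not graded at each step. In cells with 0, 1 to 2, 3 to 5, 6 to 10 and more than 10 UMIs, F13a1 stood at 329, 395, 613, 1143 and 1492 CPM in the SPP1 library. In the vector library it stood at 158, 220.0, 397, 1029.6 and 1269 CPM. It was thus higher at each step in both. Cd74 stood at 5280.0, 4800.3, 3613, 1519.7 and 813 CPM in the SPP1 library and at 6220.5, 5449, 4725, 3454 and 2145 CPM in the vector library, lower at each step. Ccl8 stood at 104, 369.6, 405, 571 and 576 CPM (SPP1) and 55.7, 195, 740.3, 1000.5 and 777 CPM (vector), the last step of the vector library being lower than the one before it. That last set held 66 cells (SPP1) and 30 cells (vector). Over the same steps Spp1 stood at 3509, 2572, 2875, 1892 and 1586 CPM in the SPP1 library. Il1b stood at 2219, 1339, 712, 726 and 135 CPM in the vector library, so neither was lower at each step. Depth differed too, with a median of 6900 UMIs (SPP1) and 6982.5 UMIs (vector) in zero cells. In the last set it was 10029.5 UMIs (SPP1) and 10610.5 UMIs (vector), and the part of depth was not tested.

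The threshold of 3 UMIs divided a continuous range. Just inside it, 35 (SPP1) and 54 (vector) cells had exactly 3 UMIs, and F13a1 stood there at 404 CPM (SPP1) and 456 CPM (vector). Just outside it, 57 (SPP1) and 83 (vector) cells had exactly 2, with F13a1 at 378 CPM (SPP1) and 237 CPM (vector). Cd74 stood at 4729 CPM (SPP1) and 5082 CPM (vector) just inside the threshold and at 4623 CPM (SPP1) and 5532 CPM (vector) just outside it.

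**Figure D3:**
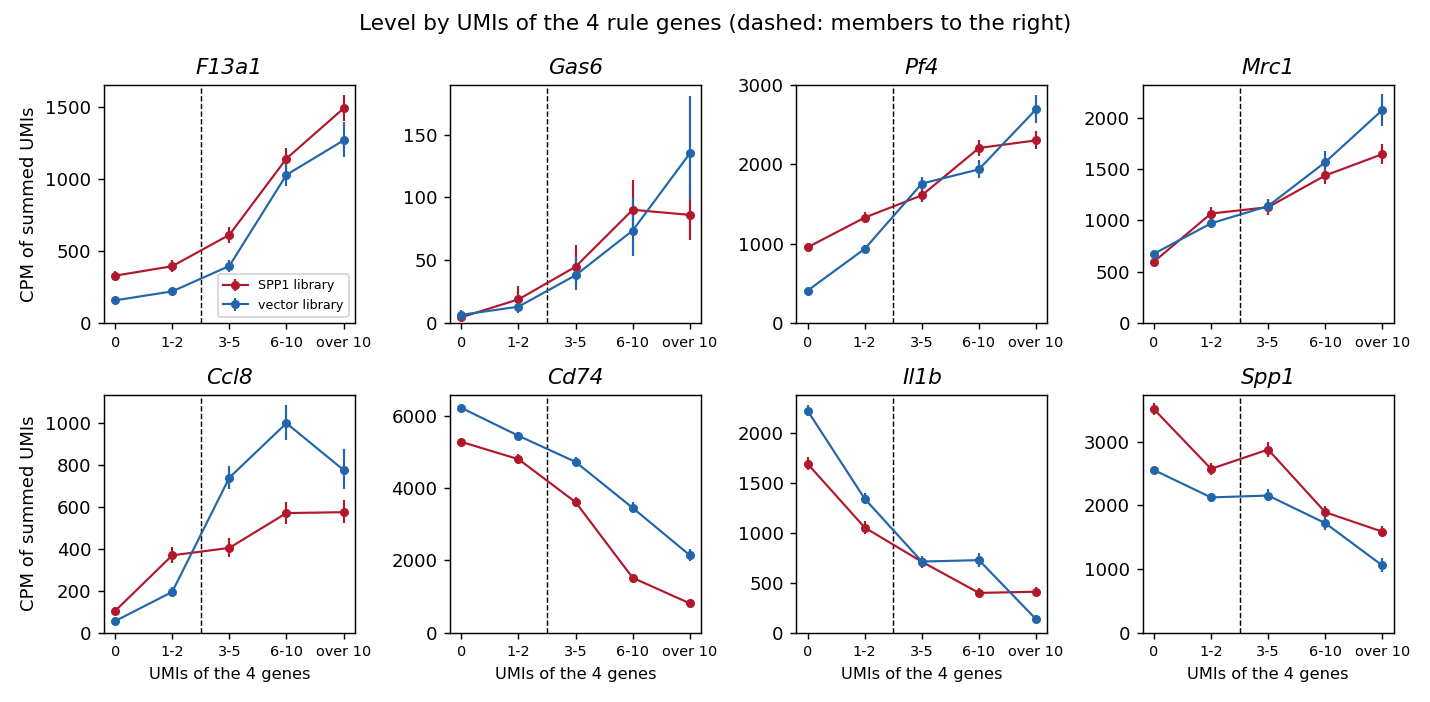
CPM of 8 genes, 1 a panel (vertical axis), against the summed UMIs of Fcrls, Folr2, Cbr2 and Gpr34 per gated cell (horizontal axis), for the SPP1 (red) and vector (blue) libraries, with exact Poisson 95% intervals of the summed counts as bars. F13a1, Pf4 and Mrc1 are higher and Cd74 lower at each step in both libraries, and members lie right of the dashed line. Gas6, Ccl8, Il1b and Spp1 each change direction at a step in at least 1 library.

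Within the members, the libraries were then set against each other. Members of the SPP1 library held more UMIs of the 4 rule genes, a median of 7 against 5 (vector). Levels of some other genes were graded along that count. Of 3754 measured genes 38 had an interval wholly beyond 1.5-fold (1.01%), 18 higher (0.479%) and 20 lower (0.533%) in the library labelled SPP1. In zero cells 20 of 3711 did so (0.539%), 18 higher (0.485%) and 2 lower (0.0539%). The median log2 ratio over all measured genes was -0.03 in members, where 45% of genes lay above 0, and -0.05 in zero cells, where 41.6% did. Whether a ratio differed between members and zero cells was not tested for any gene. One of the 18 is Fcrls, whose log2 ratio of 0.85 (0.69 to 1.01) lies on counts that chose the members and is no finding. Without the genes of the rule 17 were higher (0.453%) and 37 past 1.5-fold in all (0.987%).

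The class II genes H2-Aa, H2-Ab1, H2-Eb1 and Cd74 were lower in members of the SPP1 library. Of 10 genes measured, 9 lay below 0 and these 4 were past 1.5-fold, with a median log2 ratio of -0.50, while in zero cells 11 of 11 lay below 0 with a median of -0.15 and 0 past 1.5-fold. H2-Eb1, a class II beta chain, had 992 CPM (SPP1) and 2229.7 CPM (vector) in members, a log2 ratio of -1.17 (interval -1.24 to -1.09), against -0.57 in zero cells. The ratio was -1.08 (interval -1.15 to -1.01) for H2-Aa, -1.05 (interval -1.13 to -0.97) for H2-Ab1 and -0.95 (interval -1.0 to -0.89) for Cd74. At least 1 UMI of Cd74 was seen in 60.6% (SPP1) and 89.5% (vector) of members, and in 50.2% (SPP1) and 81.1% (vector) after thinning to 2000 UMIs. It was also seen in 38.3% (SPP1) and 42.5% (vector) of tumour-type barcodes, which are deeper. At exactly 3 UMIs of the rule genes, Cd74 stood at 4729 CPM (SPP1) and 5082 CPM (vector). At 3 to 5 UMIs it stood at 3613 CPM (SPP1) and 4725 CPM (vector), and at 6 to 10 at 1520 CPM (SPP1) and 3454 CPM (vector). Above 10 UMIs it stood at 813 CPM (SPP1) and 2145 CPM (vector). The part of that count in the class II difference was not tested. Itgax, the integrin CD11c, had 22.5 CPM (SPP1) and 56.9 CPM (vector) in members, a log2 ratio of -1.33 (interval -1.85 to -0.85). Ccr2 was past 1.5-fold lower, at -0.79 (interval -0.95 to -0.64).

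Genes of lipid handling leaned the same way. Of 19 measured, 13 lay below 0 and 4 were past 1.5-fold lower, namely Fabp5, Atp6v0d2, Abcg1 and Cd36, and 0 were higher. Cd36, a fatty acid and lipoprotein receptor, had 74.5 CPM (SPP1) and 155 CPM (vector) in members, a log2 ratio of -1.06 (interval -1.34 to -0.78), and a ratio of -1.16 in zero cells, where it was past 1.5-fold as well. Abcg1, a cholesterol exporter, had 82.3 CPM (SPP1) and 167 CPM (vector) in members, a log2 ratio of -1.02 (interval -1.29 to -0.76). Atp6v0d2, a proton pump subunit, had 20.3 CPM (SPP1) and 58.5 CPM (vector) in members. Apoe was not past 1.5-fold, with a log2 ratio of 0.55 (interval 0.51 to 0.60). Vcam1, a vascular adhesion molecule, had 114 CPM (SPP1) and 245 CPM (vector) in members against 343 CPM (SPP1) and 362 CPM (vector) in tumour-type barcodes, and its ratio in members was -1.10 (interval -1.33 to -0.88). Named by the same rule and lower were Plxdc2, Slc41a2, Scimp, Scd2 and Mgl2.

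Col1a1, a type I collagen chain, had 8.23 CPM (SPP1) and 51.0 CPM (vector) in members, a log2 ratio of -2.60 (interval -3.43 to -1.91). In the vector library 3 cells held 92.6% of its UMIs in members, and without the 3 highest cells of each library the log2 ratio was 0.29 (-1.17 to 1.93). The vector value of Col1a1 is thus that of few cells.

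Rsad2, Ifit1 and Ifih1, 3 genes known to be induced by interferon, led the genes higher in members of the SPP1 library. Rsad2, or viperin, had 90.9 CPM (SPP1) and 14.0 CPM (vector) in members, a log2 ratio of 2.68 (interval 2.11 to 3.35), and the 3 highest cells held 44.8% (SPP1) and 42.3% (vector) of its UMIs. Ifih1, a sensor of double-stranded RNA, had 213 CPM (SPP1) and 56.4 CPM (vector), a log2 ratio of 1.92 (interval 1.61 to 2.24), with 31.8% (SPP1) and 13.3% (vector) of its UMIs in 3 cells. The share of members with any Ifih1 UMI ran the other way, at 31.7% (SPP1) and 35.8% (vector). Ifit1, an inhibitor of viral translation, had 50.2 CPM (SPP1) and 11.8 CPM (vector), a log2 ratio of 2.06 (interval 1.42 to 2.82). The 3 highest cells held 53.4% (SPP1) and 72.7% (vector) of its UMIs, which numbered only 22 in the vector library. Without the 3 highest cells of each library the log2 ratios were 2.60 (1.86 to 3.53) for Rsad2 and 1.55 (1.22 to 1.91) for Ifih1. For Ifit1 it was 2.75, with a wide interval (1.64 to 4.36) on few vector UMIs. In zero cells the ratio was 0.76 for Rsad2 and 0.39 for Ifih1, neither past 1.5-fold, and Ifit1 was too low there to be measured. The list of interferon response genes held Rsad2 and Ifit1 but not Ifih1. Of its 10 measured genes 4 lay above 0 and 6 below, with a median log2 ratio of -0.18 and 2 past 1.5-fold higher.

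Heat shock genes lay above 0 in 12 of 12 measured in members, with a median log2 ratio of 0.37, and in 4 of 12 in zero cells, with a median of -0.06. Of these Hspa1a, the inducible chaperone HSP70, was past 1.5-fold, at 367 CPM (SPP1) and 160.0 CPM (vector) in members, a log2 ratio of 1.19 (interval 1.00 to 1.39), and at 187 CPM (SPP1) and 252 CPM (vector) in zero cells, a ratio of -0.43. Its near-identical neighbour Hspa1b, whose reads may not be told apart from those of Hspa1a, had a ratio of 0.77 (interval 0.55 to 0.98), and without the 3 highest cells of each library it was past 1.5-fold as well, at 1.49 (1.19 to 1.80). All 15 measured G2 and M phase genes also lay above 0 in members, with a median of 0.34 and 0 past 1.5-fold, and 2 of 7 in zero cells. The 15 genes known to respond to tissue dissociation had a median of 0.05 in members, with 9 above 0. The part of dissociation in these values was not tested.

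The chemokines Ccl4, Ccl5 and Cxcl14 were past 1.5-fold higher in members of the SPP1 library. Ccl4, an inflammatory chemokine, had 1213 CPM (SPP1) and 656 CPM (vector) in members, a log2 ratio of 0.89 (interval 0.79 to 0.98), and a ratio of 0.71 in zero cells. Ccl5 had a ratio of 1.68 (interval 1.24 to 2.16), with 62.0% (SPP1) and 59.6% (vector) of its UMIs in 3 cells. In zero cells Ccl5 was past 1.5-fold higher as well, with a ratio of 1.01 (interval 0.85 to 1.17). The share of members with any Ccl5 UMI ran the other way, at 8.49% (SPP1) and 9.47% (vector). Ccl8 had a ratio of -0.68 (interval -0.79 to -0.57) in members, not past 1.5-fold, and 0.90 in zero cells. Gem, Sox4, Rapgef5, Col14a1 and Ntpcr completed the named higher genes. The median log2 ratio of the resident macrophage list was 0.00 in members, where 12 of its 24 measured genes lay on each side of 0 and 2, Mgl2 and Cd36, were past 1.5-fold lower.

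Transcripts of osteopontin were seen in 77.6% (SPP1) and 76.8% (vector) of members and in 78.3% (SPP1) and 79.2% (vector) of zero cells. They were also seen in 41.6% (SPP1) and 43.2% (vector) of tumour-type barcodes. Spp1 had 2127 CPM (SPP1) and 1821 CPM (vector) in members against 3509 CPM (SPP1) and 2554 CPM (vector) in zero cells, log2 ratios of -0.72 (SPP1) and -0.49 (vector), neither past 2-fold. Between the libraries the log2 ratio of Spp1 was 0.22 (interval 0.16 to 0.29) in members and 0.46 (interval 0.41 to 0.51) in zero cells, neither past 1.5-fold. Receptors of osteopontin were present. Cd44 had 1354 CPM (SPP1) and 1399 CPM (vector) in members against 1940.3 CPM (SPP1) and 1943 CPM (vector) in zero cells. Itgav, the integrin alpha V chain, had 351 CPM (SPP1) and 314 CPM (vector) in members against 229 CPM (SPP1) and 239 CPM (vector) in zero cells. Itga9, the alpha 9 chain, had 90.9 CPM (SPP1) and 104 CPM (vector) in members against 37.1 CPM (SPP1) and 51.7 CPM (vector) in zero cells and was the 1 gene of 8 measured that was past 2-fold in both libraries. Itgb5, the beta 5 chain, had 156 CPM (SPP1) and 157 CPM (vector) in members against 99.3 CPM (SPP1) and 105 CPM (vector) in zero cells. Itgb3, the beta 3 chain, was near the detection limit with 1.30 CPM (SPP1) and 0.537 CPM (vector) in members.

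**Figure D4:**
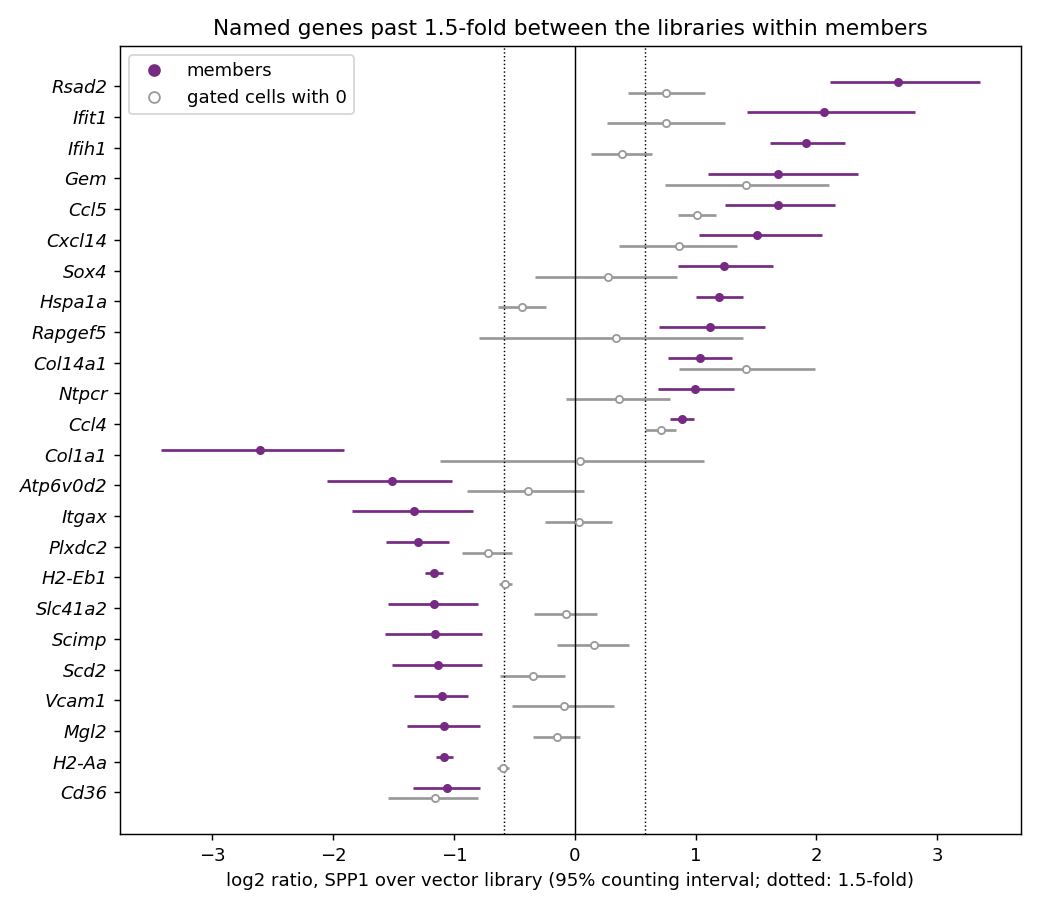
Log2 ratio of SPP1 over vector (horizontal axis) for the 24 named genes (rows) in members (filled) and zero cells (open), with exact 95% intervals for counting error and dotted lines at 1.5-fold. H2-Eb1 and H2-Aa lie left of 0 in both sets, and Hspa1a lies right of 0 in members and left of 0 in zero cells.

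The members were further divided by F13a1 and Ccl8, a pair chosen after their values were seen. F13a1 was seen in 82.2% (SPP1) and 57.4% (vector) of members, and in 65.6% (SPP1) and 45.3% (vector) after thinning, against 1.56% (SPP1) and 0.754% (vector) of tumour-type barcodes. In zero cells it was seen in 38.2% (SPP1) and 27.0% (vector). Between the libraries its log2 ratio was 0.52 (interval 0.42 to 0.61) in members, not past 1.5-fold, and 1.06 in zero cells, past 1.5-fold; the difference between these ratios was not tested. Ccl8 was seen in 32.4% (SPP1) and 52.1% (vector) of members, and in 20.8% (SPP1) and 35.3% (vector) after thinning, against 4.06% (SPP1) and 4.87% (vector) of tumour-type barcodes. Cells with F13a1 and without Ccl8 were 150 of the 259 members of the SPP1 library, 57.9% (51.6% to 64.0%), and 38 of the 190 members of the vector library, 20% (14.6% to 26.4%). Cells with both were 24.3% (SPP1) and 37.4% (vector), cells with Ccl8 alone 8.11% (SPP1) and 14.7% (vector), and cells with neither 9.65% (SPP1) and 27.9% (vector). In the SPP1 library Ccl8 was seen in 29.6% of members with F13a1 and 45.7% of those without it. In the vector library it was seen in 65.1% of members with F13a1 and 34.6% of those without.

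These 4 sets of cells differed in other genes too. In cells with both, F13a1 alone, Ccl8 alone and neither, Cd74 stood at 1858, 833, 6179 and 4891 CPM in the SPP1 library and at 2490.4, 3192, 3908 and 6124 CPM in the vector library. Cells with F13a1 held less Cd74 than cells with neither in both libraries, and the SPP1 cells with F13a1 alone held the least. Ccr2 stood at 76.1, 302, 242 and 407 CPM (SPP1) and 87.0, 663, 265 and 776 CPM (vector), lowest in cells with both. Pf4 stood at 2616, 2119, 1315 and 799.9 CPM (SPP1) and 2610.5, 2816, 1538 and 740.0 CPM (vector), and cells with F13a1 held more of it than cells without. The 21 (SPP1) and 28 (vector) cells with Ccl8 alone are few, and the absence of a transcript in a cell also depends on its depth.

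**Figure D5:**
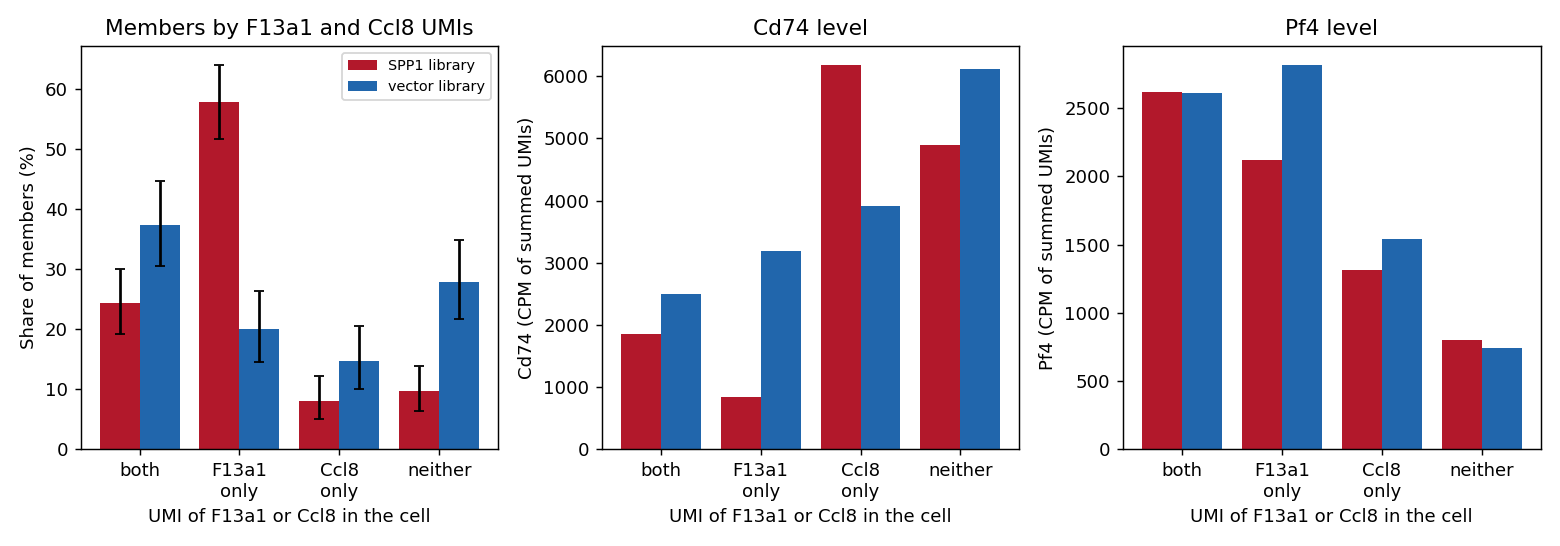
Share of members in 4 sets by UMIs of F13a1 and Ccl8, with exact 95% intervals, and the level of Cd74 and Pf4 (CPM) in each set, SPP1 bars left of vector bars. Cells with F13a1 and without Ccl8 are 57.9% of members in the SPP1 library and 20% in the vector library.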

How the data were processed

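The authors deposited unnormalized UMI counts for 2 libraries, 1 matrix each, and all values were whole numbers. Per the submitters' processing notes, reads went through Cell Ranger 2.1.1, and GRCm39 was the build. The calling of cells, the annotation release and any correction for free RNA are not stated in the labels. The gene and barcode lists deposited with the counts named 56941 genes and barcodes of 20 bases.

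The cells, marker lists and 23 gene lists were chosen with earlier results of these data known. UMIs were summed per set of cells and library and scaled to the same total (CPM). Log2 ratios had 0.5 UMI added to each sum. Members and zero cells were compared over genes with at least 50 CPM in either set and 20 UMIs over both, in both libraries, at 2-fold in both. The libraries were compared over genes with at least 50 UMIs and 50 CPM in either, when the exact conditional binomial 95% interval lay wholly beyond 1.5-fold. The 15 genes each way with the largest smaller ratio, and the 12 each way with the largest ratio between libraries, were named. Genes of the rule, the gate and the mitochondria were among those left out of naming (10 and 4 genes past the thresholds). Marker genes, osteopontin and its receptors, and list genes past a threshold were named too.

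Shares carry exact Clopper-Pearson intervals. Cells are not replicates, and with 1 library per group no test was run. Thinning drew 2000 UMIs per cell with seed 1, and no member or zero cell was shallower. Doublets were predicted by simulating 2 doublets per cell (expected rate 0.06, 2000 genes, 30 components) and kept in the main values. The procedure was tested on simulated summed counts that held no variation between cells. That test does not show how the intervals hold for transcripts concentrated in few cells. Python 3.11.15, numpy 2.4.6, scipy 1.17.1, pandas 2.3.3, scikit-learn 1.9.0, scikit-image 0.26.0 and matplotlib 3.10.9 were used. Promoter windows came from RefSeq on GRCm38.p6, another build than the counts, and were matched by symbol.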

Additional observations from a re-analysis of the deposited data

Results flagged for a closer look

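For 6 named genes, the difference between the libraries ran in opposite directions in members and in zero cells, with intervals for counting error on opposite sides of 0 and ratios at least 1 apart on the log2 scale. That difference between the sets was not tested, since each rests on 1 library per group. Ccl8 had a log2 ratio of SPP1 over vector of -0.68 in members and 0.90 in zero cells. Ccl12 had -0.67 in members and 0.81 in zero cells, and Ccl7 had -0.27 in members and 1.17 in zero cells. These 3 chemokine genes lie close together in the mouse genome and encode attractants of monocytes. Mmp13, a collagenase, had -0.51 in members and 1.2 in zero cells. Ero1a, an oxidase of the endoplasmic reticulum, had -0.37 in members and 0.68 in zero cells. Hspa1a was the only one of the 6 with the higher ratio in members, 1.19, and had -0.43 in zero cells.

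Barcodes outside the phagocyte gate also carried at least 3 UMIs of Fcrls, Folr2, Cbr2 and Gpr34 together. There were 97 in the library labelled SPP1 and 47 in the library labelled vector. Of these, 89 (SPP1) and 44 (vector) had at least 2000 UMIs and more than 2 UMIs of the tumour genes Hmga2, Sox9, Tafa1 and Hoxa9.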

How the results depend on the processing

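The share of gated cells that were members was 43.4% (SPP1) and 23.5% (vector), a log2 ratio of 0.89, and over all alternatives the ratio lay between 0.44 and 1.85. It was 52.9% (SPP1) and 33.7% (vector), ratio 0.65, with at least 2 UMIs of the 4 genes, and 32.2% (SPP1) and 12.8% (vector), ratio 1.32, with at least 5. It was 29.0% (SPP1) and 15.8% (vector) without Fcrls in the rule, 39.0% (SPP1) and 19.6% (vector) without Folr2, and 38.0% (SPP1) and 16.0% (vector), ratio 1.24, without Gpr34. With no limit on tumour genes, an alternative chosen after seeing the data, it was 32.0% (SPP1) and 19.7% (vector). Cells thinned to 2000 UMIs gave 45.7% (SPP1) and 27.2% (vector) at 1 UMI or more, and 17.8% (SPP1) and 4.94% (vector), ratio 1.85, at 3 or more. Over all barcodes with enough UMIs it was 2.08% (SPP1) and 1.54% (vector), ratio 0.44.

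The 140 genes past 2-fold between members and zero cells were 219 with at least 5 UMIs of the 4 genes, 222 at 20 CPM or more, 91 at 100 CPM or more, 351 with no CPM filter and 49 at 3-fold. The 38 past 1.5-fold between libraries were 61 with no tumour gene UMI allowed, 19 after thinning, 63 at 20 CPM, 22 at 100 CPM, 66 with no filter and 12 at 2-fold. Apart from fewer or more genes and cells entering each count, the cause was not tested. Col1a1 turned to 0.29 without the 3 cells that held most of its UMIs. Of the shares, their ratios and the gene counts recomputed, 62 stayed within the counting interval or within 1.5-fold of the main count, and 33 moved. Of 276 list medians recomputed, 270 stayed within a range set by the ratios of the list's own genes and 6 moved. For the shortest lists that range spans all measured genes of the list, so staying within it is a weak check. Leaving out cells whose barcode occurs in both libraries was also added after seeing the data.

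No paired analysis was possible because each group has 1 library, and for the same reason no replicate was left out in turn. Genes under 50 CPM in the summed cells, such as Lyve1, Cd163 and Timd4, are described by a few UMIs.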

Other observations

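Retnla, a secreted product of alternatively activated macrophages, had 2.60 CPM (SPP1) and 47.2 CPM (vector) in members, against 0.66 CPM (SPP1) and 0.65 CPM (vector) in zero cells. Its 6 UMIs (SPP1) and 88 UMIs (vector) lay in 0.77% (SPP1) and 3.68% (vector) of members. Vsig4, a complement receptor of resident macrophages, had 1 UMI (SPP1) and 16 UMIs (vector) in members. Siglec1, a sialic acid receptor of tissue macrophages, had 19.9 CPM (SPP1) and 14.5 CPM (vector) in members, against 3.31 CPM (SPP1) and 1.64 CPM (vector) in zero cells. These 3 genes were below the level needed to enter the comparison over genes.

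Xist, the RNA of the inactive X chromosome, had 1046 CPM (SPP1) and 950 CPM (vector) in members and was seen in 98.5% (SPP1) and 97.9% (vector) of them. It had 849.6 CPM (SPP1) and 846 CPM (vector) in zero cells, and 5.29 CPM (SPP1) and 5.03 CPM (vector) in tumour-type barcodes. Ddx3y, a gene of the Y chromosome, had 16.5 CPM (SPP1) and 11.8 CPM (vector) in members and 33.2 CPM (SPP1) and 22.3 CPM (vector) in tumour-type barcodes.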
